A study of Mus musculus with 24 samples.

Results

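The 7 genes described here encode the folliculin complex and the Rag GTPases, which are *Flcn*, its partners *Fnip1* and *Fnip2*, and *Rraga*, *Rragb*, *Rragc* and *Rragd*. They were picked by name, as the genes of this complex and GTPase family, from the 55487 genes of the expression table, with earlier results of these data known. All 7 passed the filter on low counts, as did 15401 genes in all. mRNA was measured in MEFs (mouse embryonic fibroblasts) that were WT or *tfeb tfe3* DKO, a line made to lack the transcription factors TFEB and TFE3, both obtained by the study from another laboratory. Cells of each genotype received DMSO (0.1%), the catalytic MTOR inhibitor torin1 (100 nM) or the AMPK activator MK-8722 (10 µM), which gives 6 groups of 4 libraries. Of the 7 genes *Rragd* was near the limit of the filter in DKO, with 3 to 16 counts per library, against 31 to 210 in WT. The duration of treatment before RNA extraction and the age and strain of the embryos are not given in the sources used here, which name no more than 1 line per genotype, so genotype and line cannot be told apart.

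The Rag GTPases sit on the lysosome as heterodimers of RRAGA or RRAGB with RRAGC or RRAGD, and with amino acids they bring MTORC1 to the lysosomal surface. FLCN, bound to FNIP1 or FNIP2, is a GTPase-activating protein for RRAGC and RRAGD. With GDP on RRAGC or RRAGD, TFEB and TFE3 are held at the lysosome, where MTORC1 phosphorylates them and keeps them out of the nucleus. TFEB and TFE3 that reach the nucleus bind E-box motifs with the core CACGTG in promoters of lysosomal genes.

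Each library held 24668921 to 33332562 estimated counts (median 27988364), and each library of a group came from another passage, 7, 8, 9 or 11 for WT and 8, 9, 10 or 11 for DKO. The p-values therefore measure the spread between passages of the cells, not between embryos. *Tfeb* read 14 to 25 CPM (counts scaled to library size with TMM, edgeR's trimmed mean of M-values) in the 12 WT libraries and 1.34 to 2.65 CPM in the 12 DKO libraries, whereas *Tfe3* mRNA ranged from 77.4 to 126 CPM over both genotypes. The fibroblast genes *Vim* (at least 2065 CPM), *Fn1* (at least 1211 CPM) and *Col1a1* (at least 753 CPM) were abundant in every library, while the fibroblast surface marker *Thy1* reached at most 4.51 CPM. The others of this list ranged widely, *Col1a2* from 205 to 1329 CPM, *Pdgfrb* from 29.4 to 78.0, *Col3a1* from 8.99 to 55.6 and *Pdgfra* from 4.20 to 177. Under DMSO *Pdgfra* and *Pdgfrb* were called higher in DKO than in WT, and *Col1a2*, *Fn1* and *Thy1* lower (48.2% of all genes called). Of the leukocyte and macrophage markers, *Adgre1* had no count and *Ptprc* at most 0.195 CPM, and the summed list stood at 1.87 to 2.46 CPM in WT under DMSO and at 10.7 to 14.6 CPM in WT under MK-8722, with *Cd68* at 1.54 to 14.3 CPM over all libraries. In DKO the leukocyte list stood at 4.39 to 6.37 CPM under DMSO and 8.28 to 11.7 CPM under MK-8722. The summed epithelial list went from 2.77 to 4.58 CPM under DMSO to 5.54 to 7.46 CPM under torin1 in WT, and from 2.99 to 4.86 CPM to 9.87 to 14.5 CPM in DKO. Of this list *Krt8* reached 14.2 CPM, while *Cdh1*, *Epcam* and *Krt18* reached at most 1.86, 0.908 and 0.783 CPM. Under DMSO *Krt8* was called higher in DKO than in WT, and *Cdh1*, *Epcam* and *Krt18* were called lower. The endothelial list was at 0.170 to 0.369 CPM in WT under DMSO, 0.635 to 1.10 CPM under torin1 and 0.895 to 1.31 CPM under MK-8722, and at most 0.308 CPM in DKO, and its gene *Kdr* was called higher with both compounds in WT and with neither in DKO. The muscle list reached 6.98 CPM in WT under torin1, where DMSO libraries read 2.997 to 3.66 CPM, and at most 1.01 CPM in DKO, and the pluripotent list reached at most 1.08 CPM. A list of 10 interferon-stimulated genes summed to 86.8 to 333 CPM in the WT libraries of passages 7, 8 and 9, to 1785 to 2156 CPM in the 3 WT libraries of passage 11, and to 1621 to 3164 CPM in all 12 DKO libraries. The part of these markers and genes in the results was not tested. Values without passage 11 of WT and passage 8 of DKO are given beside the calls that they change.

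In WT cells 6 of the 7 genes rose with each compound, and in DKO cells 2 rose with torin1 and 1 with MK-8722. A gene is called changed at an adjusted p under 0.05 (edgeR's quasi-likelihood test, Benjamini-Hochberg adjustment over all genes tested) with a fold change of at least 1.2. The calls of a rise in DKO could be lost with 1 library left out. Without the torin1 library of passage 8 neither rise with torin1 was called, and that of *Rragd* was lost without any 1 of 6 libraries. Without the DMSO library of passage 11 the rise with MK-8722 was not called. In these cases *Fnip2* kept an edgeR adjusted p under 0.05, at 0.0122 with torin1 and 0.0456 with MK-8722, and fell short of the fold change. In WT, torin1 raised 6 genes and lowered *Rraga*, where 47.1% of all genes tested were called and 26.6% were called higher. MK-8722 raised the same 6 genes in WT, against 16.1% of all genes called and 10.3% called higher. In DKO cells torin1 raised *Fnip2* and *Rragd* and lowered *Flcn* and *Rraga* (43.2% of all genes called), and MK-8722 raised *Fnip2* (8.69% of all genes called). Both compounds were compared with the same DMSO libraries within a genotype. Groups whose libraries do not overlap, as given for single genes below, were common. Over all genes tested the libraries were apart from DMSO for 54.1% with torin1 and 29.7% with MK-8722 in WT. In DKO these shares were 52.8% and 21.1%, and between genotypes under 1 treatment they were 54.6% to 60.4%. In these bulk libraries fewer cells that express a gene and less of its RNA per cell cannot be told apart.

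**Figure D1:**
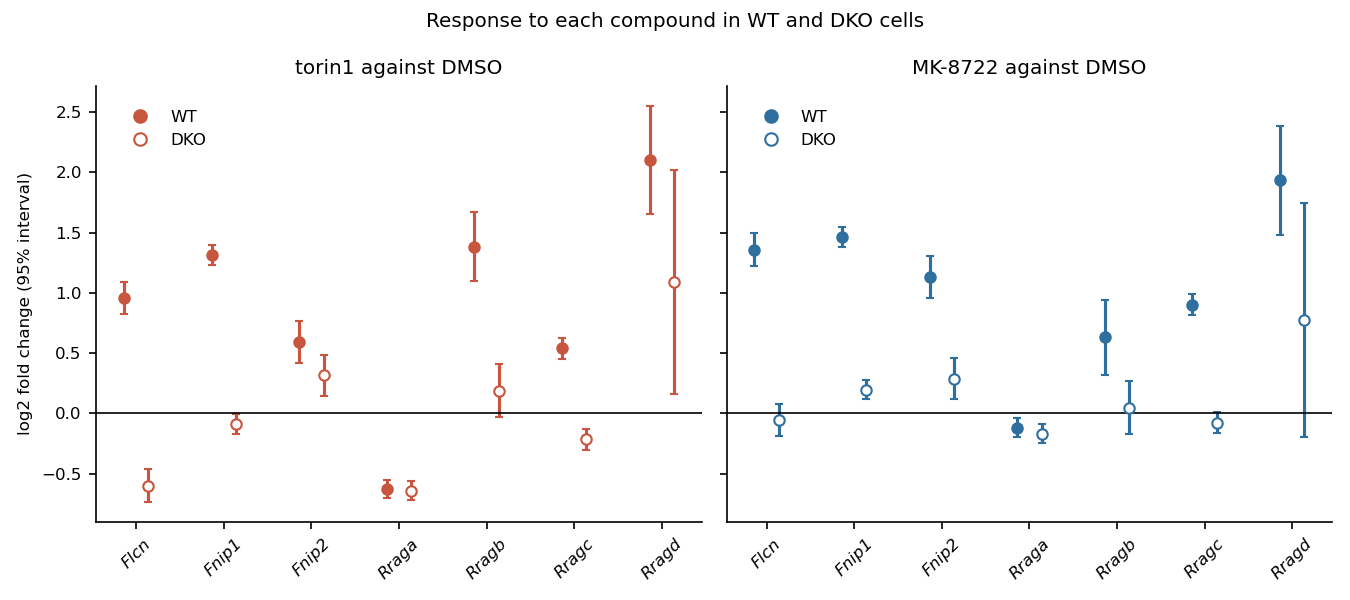
Log2 fold change against DMSO of each gene with torin1 (left) and MK-8722 (right), in WT (filled) and DKO (open) cells, with 95% intervals from edgeR. In WT the points of all genes other than *Rraga* lie above 0 with both compounds, and those of DKO lie nearer to 0 or below it for *Flcn*, *Fnip1* and *Rragc*.

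The response to each compound was also compared between genotypes, as the log2 fold change in DKO minus that in WT. The response to torin1 was lower in DKO for *Flcn*, *Fnip1*, *Rragb* and *Rragc* and higher for none of the 7, where 11.0% of all genes were called and 6.33% were called lower. For MK-8722 it was lower for *Flcn*, *Fnip1*, *Fnip2* and *Rragc*, where 5.49% of all genes were called and 4.08% were called lower. The median difference of response over the 7 genes was -1.01 with torin1 and -0.98 with MK-8722 on the log2 scale, and over all genes tested it was -0.01 and 0.01. With torin1 the median gene was *Rragd*, which had few counts in DKO and did not pass the test (edgeR adjusted p = 0.236). Under DMSO all 7 genes differed between genotypes, 5 of them higher in DKO (23.5% of all genes called higher) and 2 lower (24.6% called lower), with 48.2% called in either direction. Under torin1 2 genes were higher and 4 lower in DKO, with 27.8% of all genes called lower and 51.8% in either direction, and under MK-8722 1 gene was higher and 5 were lower, with 23.3% of all genes called higher, 25.4% lower and 48.7% in either direction.

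**Figure D2:**
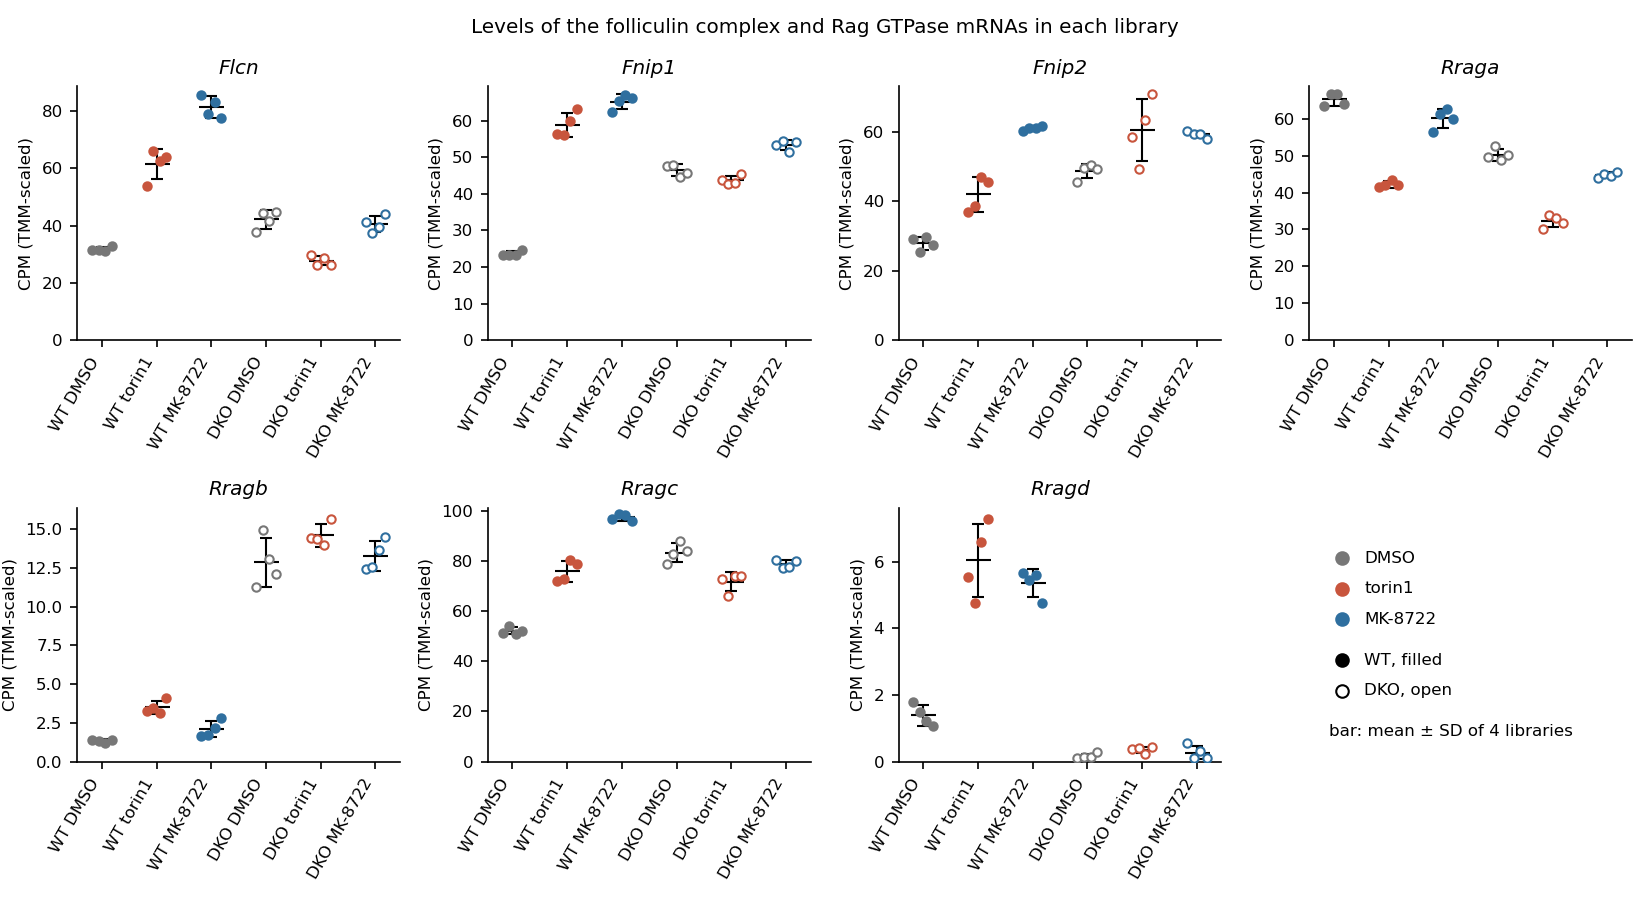
CPM of each gene in each of the 24 libraries, with the mean and SD of the 4 libraries of a group, on axes that start at 0. WT libraries are filled and DKO libraries open. *Rragb* stood at 1.19 to 4.12 CPM in WT and 11.3 to 15.7 CPM in DKO, while *Rragd* stood at 1.06 to 7.27 CPM in WT and at most 0.549 CPM in DKO.

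*Flcn* encodes folliculin, the subunit that carries the GTPase-activating function (ENSMUSG00000032633, chr11:59791408-59810016 on the minus strand of GRCm38). In WT the 4 libraries read 31.4, 31.5, 31 and 32.8 CPM under DMSO, 53.7, 65.9, 62.5 and 63.8 CPM under torin1, and 85.7, 78.9, 83.1 and 77.4 CPM under MK-8722. The 3 WT groups did not overlap, with MK-8722 highest. In DKO the libraries read 37.8, 44.5, 41.8 and 44.6 CPM under DMSO, 29.8, 26.4, 28.8 and 26.3 CPM under torin1, and 41.3, 37.5, 39.4 and 44.0 CPM under MK-8722. The DKO groups under DMSO and MK-8722 overlapped, and every library under torin1 lay below both and below WT under DMSO. *Flcn* thus rose 1.94-fold with torin1 in WT (log2 0.96 ± 0.06, SE, edgeR adjusted p = 1.75e-11) and fell by 0.60 on the log2 scale in DKO (SE 0.06, adjusted p = 4.34e-08). With MK-8722 it rose 2.56-fold in WT (log2 1.36 ± 0.06), and in DKO the log2 fold change was -0.05 (95% interval -0.19 to 0.08). The genotypes differed in both responses, by -1.56 ± 0.09 (adjusted p = 9.67e-11) with torin1 and by -1.41 ± 0.09 (adjusted p = 2.73e-10) with MK-8722. *Flcn* was 1.33-fold higher in DKO under DMSO, and lower in DKO by 1.14 (torin1) and 1.00 (MK-8722) on the log2 scale. No CACGTG was found in the 300 bases around its RefSeq start.

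*Fnip1* and *Fnip2* encode the folliculin-interacting proteins, either of which can form the complex with FLCN. *Fnip1* (ENSMUSG00000035992) lies at chr11:54438199-54518235 on the plus strand and *Fnip2* (ENSMUSG00000061175) at chr3:79455974-79567796 on the minus strand. Their promoter sequences are shown because the palindrome GTCATATGAC, which holds the E-box CATATG, stands near both starts. Windows of 250 bases before to 50 bases after each gene's start were read from RefSeq (GRCm38.p6) on the strand of the gene, and motifs were searched on both strands. Capitals mark CACGTGA or GTCATATGAC, and bases are counted from the start, with the base before it as -1.
*Fnip1*, chr11:54438079-54438129, bases -100 to -50: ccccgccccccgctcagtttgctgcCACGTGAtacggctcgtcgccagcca
*Fnip1*, chr11:54438185-54438214, bases 7 to 36: actaatttctGTCATATGACtgaggcgccc
*Fnip2*, chr3:79567766-79567795, bases -116 to -87: ggccggctccGTCATATGACcggccggcgg
*Fnip1* held 1 CACGTG, at base -75, which read CACGTGA, and *Fnip2* held none. GTCATATGAC began at base 17 in *Fnip1* and at base -106 in *Fnip2*. Of 32851 promoters 7.15% held CACGTG, 3.77% held CACGTGA, and 14 (0.0426%) held GTCATATGAC. The last motif was chosen after these sequences had been read, and no binding was measured.

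*Fnip1* was 23.2, 23.2, 23.4 and 24.7 CPM in WT under DMSO, 56.3, 56.0, 59.8 and 63.1 CPM under torin1, and 62.3, 65.2, 67.0 and 66.3 CPM under MK-8722. The treated WT groups lay clear of DMSO and met only where the highest torin1 library passed the lowest MK-8722 library. In DKO it was 47.7, 47.8, 44.7 and 45.7 CPM under DMSO, 43.7, 42.6, 42.9 and 45.5 CPM under torin1, and 53.3, 54.5, 51.3 and 54.2 CPM under MK-8722. Every DKO library lay above the WT libraries under DMSO and below the treated WT libraries. The rise in WT was 2.49-fold with torin1 (log2 1.32 ± 0.04, edgeR adjusted p = 1.4e-16) and 2.76-fold with MK-8722 (log2 1.46 ± 0.04, adjusted p = 7.38e-17). In DKO the log2 fold change was -0.09 with torin1 (adjusted p = 0.0583) and 0.20 with MK-8722, which passed the adjusted p (0.00104) but not the fold change. The responses differed by -1.41 ± 0.06 with torin1 (adjusted p = 2.18e-13) and by -1.27 ± 0.06 with MK-8722 (adjusted p = 1.87e-12). Under DMSO *Fnip1* was 1.97-fold higher in DKO, and it was lower in DKO by 0.43 under torin1 and by 0.29 under MK-8722 (log2).

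*Fnip2* in WT measured 29.1, 25.5, 29.6 and 27.4 CPM under DMSO, 37.0, 38.6, 47.1 and 45.7 CPM under torin1, and 60.1, 61.3, 61.0 and 61.8 CPM under MK-8722. In DKO it measured 45.6, 49.5, 50.4 and 49.3 CPM under DMSO, 58.4, 49.4, 63.5 and 71.0 CPM under torin1, and 60.4, 59.5, 59.4 and 58.1 CPM under MK-8722. The order of the groups differed from that of *Fnip1*, since the 3 highest groups, MK-8722 in WT and both compounds in DKO, had means of 61.1, 60.6 and 59.4 CPM and neighbours in that order overlapped. *Fnip2* rose 1.51-fold with torin1 and 2.19-fold with MK-8722 in WT (log2 0.59 ± 0.08 and 1.13 ± 0.08, edgeR adjusted p = 1.86e-06 and 5.25e-10). In DKO it rose 1.24-fold with torin1 (adjusted p = 0.00215), with overlapping libraries, and 1.22-fold with MK-8722 (adjusted p = 0.0154). Without the torin1 library at 71.0 CPM (passage 8) the log2 fold change with torin1 was 0.24 (edgeR adjusted p = 0.0122), below the fold change asked for. It was also 0.24 without passage 11 of WT and passage 8 of DKO (adjusted p = 0.0129). Without the DMSO library at 45.6 CPM (passage 11) the log2 fold change with MK-8722 was 0.25 (adjusted p = 0.0456), again below the fold change asked for. The response to MK-8722 was lower in DKO by 0.84 ± 0.12 (log2, adjusted p = 3.03e-05), and the response to torin1 differed by -0.28 (95% interval -0.52 to -0.04, adjusted p = 0.118). That difference passed the test without the same torin1 library (-0.35, adjusted p = 0.0307), without passage 11 of WT and passage 8 of DKO (-0.37, adjusted p = 0.0325), with library size alone in place of TMM (-0.33, adjusted p = 0.0476), and with passage as a block (-0.28, adjusted p = 0.031). *Fnip2* was higher in DKO by 1.75-fold under DMSO and 1.44-fold under torin1, and under MK-8722 the log2 difference was -0.04 (95% interval -0.21 to 0.13).

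*Rraga* encodes one of the 2 interchangeable A/B class subunits, whose GTP-bound form contacts MTORC1, and it is a gene of 1 exon (ENSMUSG00000070934, chr4:86575668-86577285, plus strand). WT libraries stood at 63.4, 66.8, 66.7 and 64.0 CPM under DMSO, 41.4, 42.0, 43.5 and 42.0 CPM under torin1, and 56.5, 61.3, 62.7 and 59.8 CPM under MK-8722. DKO libraries stood at 49.7, 52.5, 48.7 and 50.2 CPM under DMSO, 30.2, 33.9, 33 and 31.8 CPM under torin1, and 43.8, 45.1, 44.5 and 45.4 CPM under MK-8722. No neighbours overlapped in the order of the 6 groups, which ran from WT under DMSO to DKO under torin1. Torin1 lowered *Rraga* by 0.63 ± 0.04 in WT and by 0.64 ± 0.04 in DKO (log2, edgeR adjusted p = 2.78e-12 and 3.12e-12). With MK-8722 the log2 fold changes were -0.12 (adjusted p = 0.018) and -0.17 (adjusted p = 0.00279), short of the fold change asked for. The responses differed between genotypes by -0.01 (95% interval -0.12 to 0.10) for torin1 and -0.05 (95% interval -0.16 to 0.06) for MK-8722. *Rraga* was lower in DKO by 0.38, 0.39 and 0.43 (log2) under DMSO, torin1 and MK-8722.

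*Rragb* encodes the other A/B subunit (ENSMUSG00000041658, chrX:153139981-153171943, plus strand). Its promoter is shown because it held CACGTG 3 times, at bases -127, -36 and -3, each time as CACGTGA in capitals. Of 32851 promoters 29 (0.0883%) held at least 3 CACGTG.
*Rragb*, chrX:153139818-153139962, bases -140 to 5: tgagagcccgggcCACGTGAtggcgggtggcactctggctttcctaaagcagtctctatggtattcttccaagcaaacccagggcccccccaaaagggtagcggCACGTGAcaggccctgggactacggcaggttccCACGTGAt
The WT libraries held 46, 45, 32 and 41 counts of *Rragb* under DMSO (1.41, 1.35, 1.19 and 1.40 CPM), 101, 110, 101 and 115 counts under torin1 (3.30, 3.49, 3.16 and 4.12 CPM), and 44, 48, 67 and 72 counts under MK-8722 (1.68, 1.72, 2.14 and 2.80 CPM). The DKO libraries held 302 to 439 counts, which is 11.3, 15, 13.1 and 12.1 CPM under DMSO, 14.4, 14.4, 14 and 15.7 CPM under torin1, and 12.4, 12.5, 13.7 and 14.5 CPM under MK-8722. The 3 WT groups did not overlap each other, and every DKO library lay above every WT library. Of the 7 genes *Rragb* had the largest difference in favour of DKO, 9.53-fold under DMSO (log2 3.25 ± 0.13), 4.16-fold under torin1 (2.06 ± 0.12) and 6.37-fold under MK-8722 (2.67 ± 0.12), with edgeR adjusted p = 1.49e-15, 4.65e-13 and 1.91e-14. The 3 WT libraries of passage 11, whose interferon-stimulated genes summed to 1785 to 2156 CPM, read 1.35 (DMSO), 3.30 (torin1) and 1.72 CPM (MK-8722). The part of the interferon-stimulated genes or of the passage in the *Rragb* difference was not tested. Over the 502 genes of the X chromosome that were tested the median log2 difference was 0.38 under DMSO, 0.35 under torin1 and 0.40 under MK-8722, with 278 called higher and 72 lower under DMSO, and their part in the *Rragb* difference was not tested.

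Torin1 raised *Rragb* 2.61-fold in WT (log2 1.38 ± 0.14, edgeR adjusted p = 1.26e-08) and MK-8722 raised it 1.55-fold (log2 0.63 ± 0.15, adjusted p = 0.00227). In DKO the log2 fold changes were 0.19 (95% interval -0.03 to 0.41) and 0.05 (95% interval -0.17 to 0.27), and the libraries overlapped those under DMSO. The response to torin1 was lower in DKO, with a difference of -1.20 ± 0.18 (adjusted p = 4.66e-05), and that to MK-8722 differed by -0.58 ± 0.18 with an adjusted p of 0.0591. With passage as a block the latter difference passed the test (adjusted p = 0.0288), as it did with the number in the title as a block (0.0431), with DESeq2 (0.0401), with a filter of 10 counts in every library (0.0487) and without any 1 of 4 libraries. The WT call for MK-8722 was lost with an offset for each library's effective gene length (log2 0.43, adjusted p = 0.088).

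*Rragc* encodes a subunit of the C/D class, on which the folliculin complex acts (ENSMUSG00000028646, chr4:123917446-123936997, plus strand). Its promoter held CACGTG once, at base -112, again as CACGTGA.
*Rragc*, chr4:123917293-123917343, bases -140 to -90: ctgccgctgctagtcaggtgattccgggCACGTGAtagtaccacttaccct
In WT *Rragc* read 51.2, 54.1, 51.0 and 52.2 CPM under DMSO, 71.8, 72.7, 80.4 and 78.6 CPM under torin1, and 96.6, 98.9, 98.3 and 95.9 CPM under MK-8722. In DKO it read 78.6, 82.7, 87.7 and 83.8 CPM under DMSO, 72.9, 66.0, 73.9 and 73.9 CPM under torin1, and 80.5, 77.2, 77.7 and 80.0 CPM under MK-8722. All other groups lay above WT under DMSO, and the WT group under MK-8722 lay above all others. *Rragc* rose 1.46-fold with torin1 and 1.87-fold with MK-8722 in WT (log2 0.54 ± 0.04 and 0.90 ± 0.04, edgeR adjusted p = 2.12e-10 and 2.35e-13). In DKO the log2 fold change was -0.21 with torin1 (adjusted p = 0.000138, short of the fold change asked for) and -0.08 with MK-8722 (95% interval -0.17 to 0.01). The responses were lower in DKO by 0.76 ± 0.06 and 0.98 ± 0.06 (adjusted p = 6.97e-09 and 1.32e-10). *Rragc* was 1.60-fold higher in DKO under DMSO, differed by -0.08 under torin1 (95% interval -0.17 to 0.01), and was lower by 0.31 under MK-8722 (log2). Exons of 1 gene on the opposite strand, *4930535I16Rik*, overlap 264 bases of *Rragc* exons, and the sources used here do not state whether strand was used in counting.

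*Rragd* encodes the other C/D subunit (ENSMUSG00000028278, chr4:32983037-33022180, plus strand), a gene known as a TFEB target. WT libraries held 58, 50, 33 and 31 counts under DMSO (1.78, 1.5, 1.23 and 1.06 CPM), 170, 150, 210 and 203 counts under torin1 (5.55, 4.76, 6.58 and 7.27 CPM), and 148, 152, 175 and 122 counts under MK-8722 (5.66, 5.44, 5.59 and 4.75 CPM). DKO libraries held 3, 3, 4 and 7 counts under DMSO, 10, 11, 6 and 12 under torin1, and 16, 3, 9 and 3 under MK-8722. Every DKO library lay below every WT library, and the DKO groups overlapped each other. In WT *Rragd* rose 4.295-fold with torin1 and 3.82-fold with MK-8722 (log2 2.10 ± 0.22 and 1.93 ± 0.22, edgeR adjusted p = 1.78e-08 and 4.1e-07), the largest rises of the 7 genes with each compound. Summed over the 4 libraries, *Rragd* was higher in WT by 8.60-fold under DMSO (95% counting interval 5.22 to 15.1, exact binomial), 16.9-fold under torin1 (12.3 to 24) and 18.8-fold under MK-8722 (13.1 to 28), and these intervals cover counting error only. edgeR gave log2 differences of -3.06 ± 0.35, -4.07 ± 0.27 and -4.22 ± 0.28 (adjusted p = 8.66e-08, 6.8e-12 and 9.19e-12). At 3 to 16 counts the responses in DKO were poorly measured, with log2 1.09 for torin1 (95% interval 0.16 to 2.02, adjusted p = 0.0417) and 0.77 for MK-8722 (95% interval -0.20 to 1.74). The torin1 call in DKO was lost in 6 other settings of the processing, without any 1 of 6 libraries, and without WT passage 11 and DKO passage 8 (adjusted p = 0.184). The responses differed between genotypes by -1.01 (95% interval -2.13 to 0.11, adjusted p = 0.236) for torin1 and -1.16 (95% interval -2.31 to -0.017, adjusted p = 0.28) for MK-8722, which did not pass the test. With the offset for effective gene length both passed, at -1.76 (adjusted p = 0.0431) and -1.97 (adjusted p = 0.0455). No CACGTG was found in the promoter windows of *Rragd* or *Rraga*.

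**Figure D3:**
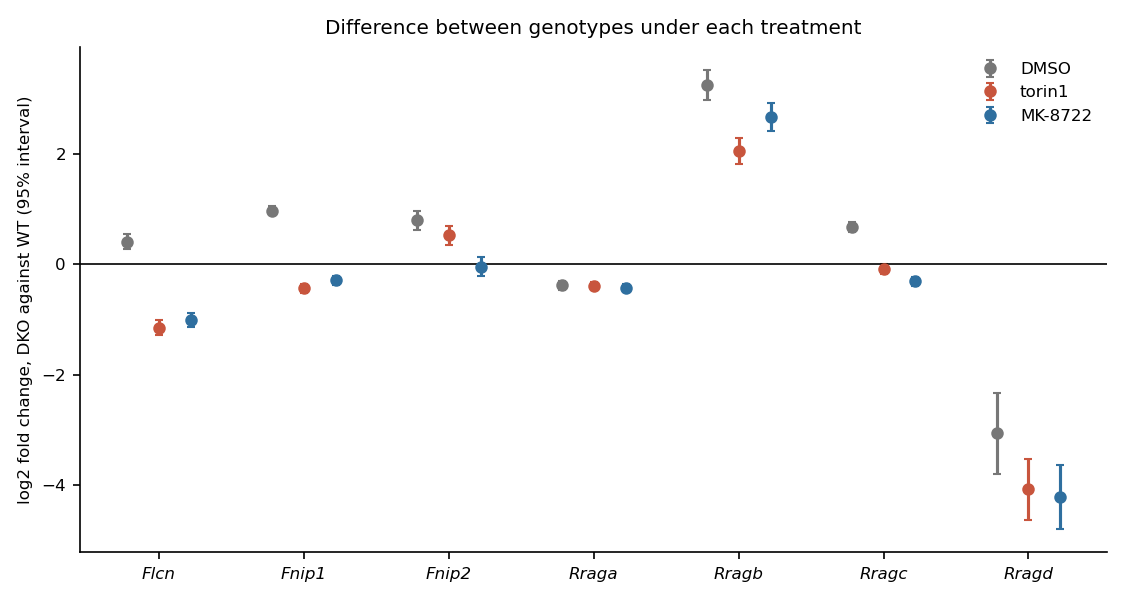
Log2 fold change of DKO against WT under DMSO, torin1 and MK-8722 for each gene, with 95% intervals from edgeR. *Rragb* is above and *Rragd* and *Rraga* are below 0 under all 3 treatments, while *Flcn* and *Fnip1* are above 0 under DMSO and below it under both compounds.

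Levels of different genes were compared per length, in TPM (transcript abundance scaled to length and to a fixed total per library), and these ratios and shares entered no test. In WT under DMSO the order was *Rraga* (66.1 ± 1.8 TPM, mean ± SD, n = 4), *Rragc* (34.4 ± 1.0), *Flcn* (18.2 ± 0.72), *Fnip2* (9.03 ± 0.87), *Fnip1* (6.04 ± 0.17), *Rragb* (1.70 ± 0.45) and *Rragd* (0.433 ± 0.10). *Fnip2* made up 59.8% of the summed *Fnip1* and *Fnip2* TPM there, 48.4% with torin1 and 54.5% with MK-8722, while in DKO it made up 58.2%, 64.3% and 59.8%. The share of *Fnip2* thus lay lower with torin1 than with DMSO in WT, without overlap of the libraries, and in DKO the torin1 and DMSO libraries overlapped (59.2% to 67.8% and 56.0% to 60.04%).

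The mix of the A/B class differed between genotypes. *Rragb* held 2.51% of the summed *Rraga* and *Rragb* TPM in WT under DMSO, 8.67% under torin1 and 3.59% under MK-8722, and in DKO it held 23.4%, 35.2% and 25.9%. The sum of both genes overlapped between genotypes under each treatment. It was 66.1 to 69.3 TPM in WT and 62.7 to 69.5 TPM in DKO under DMSO, 49.0 to 50.6 and 48.4 to 52.6 TPM under torin1, and 61.3 to 67.5 and 59.0 to 63.4 TPM under MK-8722. In the C/D class *Rragd* held 1.25%, 3.63% and 2.64% of the summed TPM in WT under DMSO, torin1 and MK-8722, and at most 0.439% in any DKO library. The C/D sum therefore followed *Rragc*, at 33.8 to 36.02 TPM in WT under DMSO against 48.4 to 56.0 TPM in DKO, 50.9 to 59.2 against 45.8 to 51.0 TPM under torin1, and 65.9 to 69.4 against 48.0 to 55.9 TPM under MK-8722. The genotypes overlapped under torin1 and were apart under DMSO, with DKO higher, and under MK-8722, with WT higher.

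**Figure D4:**
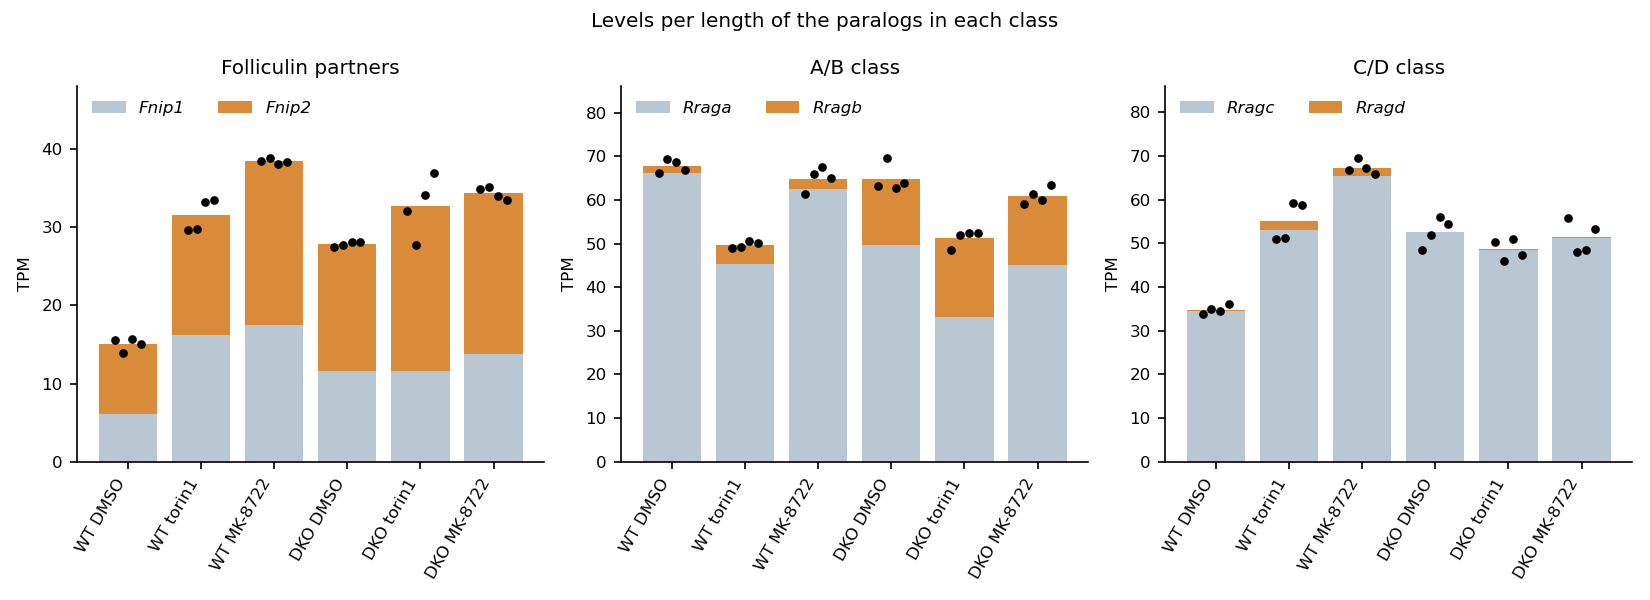
Mean TPM of *Fnip1* and *Fnip2* (left), *Rraga* and *Rragb* (middle) and *Rragc* and *Rragd* (right), stacked, by group, with a point for the sum in each of 4 libraries. In the A/B class the DKO bars hold 23.4% to 35.2% *Rragb* and the sums overlap those of WT, whereas *Rragd* is hardly visible in the DKO bars.

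Of the genes' transcripts 22 passed the filter, among 57945 tested, and 15 rose with torin1 and 14 with MK-8722 in WT (22.8% and 5.42% of all transcripts called in either direction). With passage as a block 13 rose with MK-8722 in WT. The response in DKO was lower for 8 of the 22 with torin1 (1.87% of all transcripts called) and 10 with MK-8722 (0.858% called). For *Flcn* these were the 3 transcripts of 13 exons, ENSMUST00000091246 (38.4% to 42.9% of *Flcn* TPM over the group means), ENSMUST00000102697 (29.8% to 34.9%) and ENSMUST00000148151, annotated with a retained intron (9.36% to 12.2%), whose responses to torin1 were lower by 1.67, 1.39 and 1.42 (log2, edgeR adjusted p = 4.47e-06, 8.99e-06 and 0.000529). *Fnip1* was carried by ENSMUST00000046835 at 88.7% to 91.9%, and its shorter transcript ENSMUST00000143650 at 8.14% to 11.3%, and both had lower responses in DKO with both compounds. *Rragc* came mainly from ENSMUST00000030399 (78.3% to 81.8%). *Rragb* divided between ENSMUST00000144175, of 847 bases and 5 exons (51.7% to 62.5%), and ENSMUST00000039720, of 2258 bases and 11 exons (37.5% to 48.3%), and these stood 3.05 ± 0.27 and 3.31 ± 0.19 (log2) higher in DKO under DMSO (adjusted p = 6.82e-09 and 4.54e-12). The response of the longer *Rragb* transcript to torin1 was lower in DKO by 1.34 ± 0.25 (adjusted p = 0.00442), and that of the shorter one differed by -0.81 ± 0.36 (adjusted p = 0.346). Reads of *Rraga* and *Rragb* can be told apart, since no sequence of 31 bases is shared between transcripts of the 7 genes, and at most 1.55% of such sequences of a gene (*Fnip2*) occur in transcripts of other genes.

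The compounds were also compared directly. In WT, torin1 left *Flcn*, *Fnip2*, *Rraga* and *Rragc* lower than MK-8722 did, by 0.40, 0.54, 0.51 and 0.36 (log2), and *Rragb* higher by 0.75 (edgeR adjusted p at most 4.06e-05 for each), where 44.9% of all genes were called. *Rragd* differed by 0.17 between the compounds in WT (95% interval -0.23 to 0.57), and *Fnip1* by -0.15, short of the fold change asked for. In DKO, torin1 left *Flcn*, *Fnip1* and *Rraga* lower than MK-8722 did, by 0.54, 0.29 and 0.47. These are 3 of the 7 genes, near the 40.4% of all genes called.

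Genes that act beside the complex were taken from lists written by hand, with 45 genes listed, 44 in the table and 42 tested. In WT 11 of the 42 rose and 8 fell with torin1, which is 45.2% of the list and near the 47.1% of all genes called (26.6% higher and 20.5% lower). With MK-8722 10 rose and 7 fell, 40.5% of the list beside 16.1% of all genes (10.3% higher and 5.87% lower). The median log2 fold change of the list was 0.08 and 0.06, beside 0.05 and -0.01 over all genes tested. The response to torin1 was lower in DKO for 12 and higher for 5, beside 6.33% and 4.68% of all genes, and that to MK-8722 was lower for 9 and higher for 1, beside 4.08% and 1.42%. The medians of these differences were -0.12 and -0.02, beside -0.01 and 0.01 over all genes. The 9 that were lower with MK-8722 were also lower with torin1, and the comparisons share the DMSO libraries. Among the 6 genes of the Ragulator subunits and *Slc38a9*, which anchor and activate the Rag GTPases, *Lamtor1*, *Lamtor3* and *Lamtor4* rose with MK-8722 in WT (log2 0.53, 0.60 and 0.27), and their responses were lower in DKO by 0.65, 0.68 and 0.27. *Lamtor3* fell by 1.14 with torin1 in DKO, against -0.17 in WT.

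Of 6 other partners, *Gabarap*, *Gabarapl1*, *Pip4p1* and *Sqstm1* rose in WT with both compounds, and the responses of all 4 were lower in DKO. GABARAP binds the folliculin complex on damaged or stressed lysosomes, and *Gabarap* rose by 0.62 with torin1 and 0.56 with MK-8722 in WT, with log2 fold changes of -0.16 and 0.01 in DKO. *Pip4p1* rose by 0.87 and 1.05 in WT. Of the 3 genes of the C9orf72 complex, whose SMCR8 subunit is a relative of FLCN in fold, *Smcr8* rose by 0.48 and 0.63 in WT and its responses were lower in DKO by 0.57 and 0.52, and *Wdr41* had a lower response to torin1 (-0.29). In the list of MTORC1 and its direct regulators, *Tsc1*, a subunit of the complex that turns RHEB off, had a lower response to both compounds, by 0.34 and 0.44, and *Mtor* a higher response to torin1. The responses of the 5 GATOR2 genes did not pass the test in either direction. GATOR1 is the GTPase-activating complex for RRAGA and RRAGB, and KICSTOR is its anchor. Of their 6 tested genes, *Nprl3* had a higher response to torin1 in DKO (0.43), and none passed the test for the response to MK-8722. Among 6 amino acid sensors the response to torin1 was lower for *Castor2* and *Sesn2* and higher for *Castor1*, and that to MK-8722 was higher for *Sesn3*. *Mitf*, the family member that the genotype does not remove, was higher in DKO by 1.64, 2.25 and 1.95 (log2) under DMSO, torin1 and MK-8722, and *Tfec* was not tested because of low counts.

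**Figure D5:**
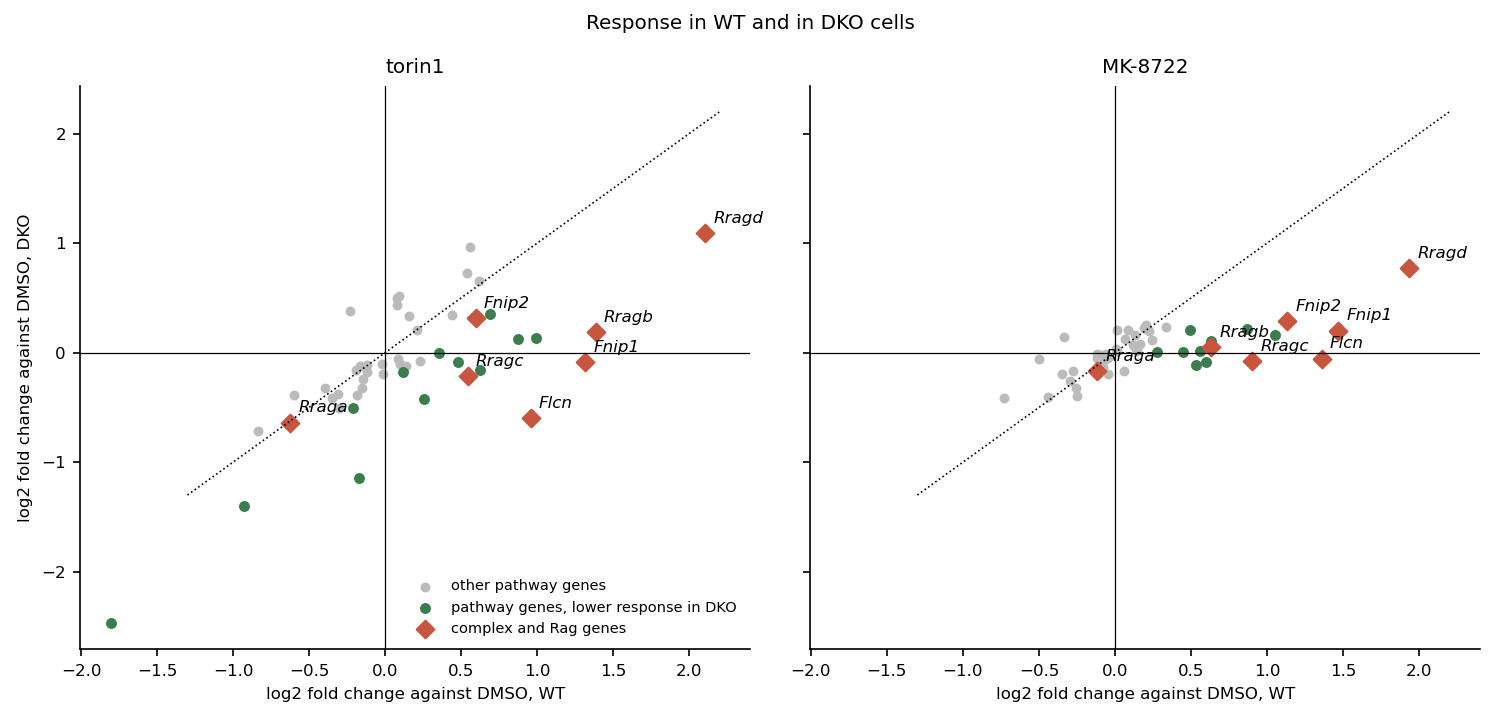
Log2 fold change against DMSO in WT (horizontal) and in DKO (vertical) for the 7 genes (diamonds) and 42 pathway genes (dots, green where the response was called lower in DKO), with torin1 (left) and MK-8722 (right) and without error bars. The dotted line marks equal responses, and *Flcn*, *Fnip1* and *Rragc* lie below it with both compounds while *Rraga* lies close to it.

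The genes whose log2 CPM followed each of the 7 most closely over the 24 libraries were named by Pearson's r, among the 10665 candidates whose average log2 CPM reached 2 (10666 for *Rragd*). The points share the 6 groups, so r mainly describes the group means. For *Flcn* they included *Atp6v0b* (r = 0.974), a subunit of the lysosomal proton pump, and *Tom1* (0.955). *Uap1l1* (0.959), *Vps26a* (0.954) and *Gga2* (0.945) came nearest to *Fnip1*, and *Snx30* (0.971), *Arl8a* (0.956) and *Spag9* (0.937) to *Fnip2*. *Rragc* was closest to *Fam50a* (0.951), *Dnajc13* (0.942) and *Vps26c* (0.938). For *Rragd* the nearest genes were *Igf2r* (0.971), the receptor that carries enzymes to lysosomes, *Cmtm3* (0.970) and *Clcn6* (0.970). *Rraga* was nearest to *Pgam1* (0.985), *Fen1* (0.982) and *Smdt1* (0.981), and *Rragb*, with its large genotype difference, to *Pard6g* (0.993), *Rnpepl1* (0.983) and *Grem1* (0.982). Among the 7 genes themselves *Fnip1* and *Rragc* were the closest pair (r = 0.912), and *Rragb* and *Rragd* the most opposed (r = -0.78).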

How the data were processed

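RNA sequencing (polyA-selected, paired-end reads of 52 bp) covered 24 libraries. The authors deposited estimated counts per gene and, per library, estimated counts and TPM per transcript, made with STAR and Salmon on GRCm38. Estimated counts were rounded and tested with edgeR 4.0.16 in R 4.3.3, with TMM scaling, filterByExpr with a minimum count of 10, 1 fit over all 6 groups (18 residual degrees of freedom) and the quasi-likelihood test. TPM were summed per gene. The script was tested on simulated data. Alternatives used limma 3.58.1 and DESeq2 1.42.0. The study removed a batch with limma, but the sources used here do not name it, so none was removed. Libraries of the same passage and genotype deviated together with a median r of 0.157 (0.0221 to 0.657 over 24 pairs, 17 of them over 0.1), against -0.0392 for other passages. The labels do not say that 1 passage was 1 culture or day and not every pair was over 0.1, so the fit held no passage block, and the blocked value is given beside each call that it changes.

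The 7 genes and the gene lists were chosen with earlier results of these data known. Named were the 7 genes, *Tfeb* and *Tfe3*, pathway genes called in both differences of response or largest in a list, the 3 genes of most similar pattern, and transcripts with at least 10% of a gene's TPM. Some genes that the rule names are not reported here. Pathway genes outside this rule were chosen after their values were seen. Promoters came from RefSeq tables, in which all 7 genes matched.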

Additional observations from a re-analysis of the deposited data

Results flagged for a closer look

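Of 14 differences of response between genotypes, 8 passed the test, with edgeR's quasi-likelihood adjusted p given after each. The log2 response to torin1 was lower in DKO for *Flcn* (-1.56, adjusted p = 9.67e-11), *Fnip1* (-1.41, adjusted p = 2.18e-13), *Rragb* (-1.20, adjusted p = 4.66e-05) and *Rragc* (-0.76, adjusted p = 6.97e-09). The response to MK-8722 was lower in DKO for *Flcn* (-1.41, adjusted p = 2.73e-10), *Fnip1* (-1.27, adjusted p = 1.87e-12), *Fnip2* (-0.84, adjusted p = 3.03e-05) and *Rragc* (-0.98, adjusted p = 1.32e-10).

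In 2 of 42 groups of 4 libraries, 1 library lay far from the other 3, and chance gives about 1 in 20. *Fnip1* read 24.7 CPM in the WT library of passage 9 under DMSO and 23.2 to 23.4 CPM in the others. *Rragc* read 66.0 CPM in the DKO library of passage 11 under torin1 and 72.9 to 73.9 CPM in the others.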

How the results depend on the processing

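Over the 7 genes and 11 comparisons, 957 of 988 results under other settings kept their direction and side of the threshold, 13 lost the call, 14 gained it and 4 turned direction. *Rragd*, at 3 to 16 counts in DKO, has no result under the filter of 10 counts in every library. With 1 library left out, 706 of 728 did so, 8 lost the call, 5 gained it and 9 turned. The cause of these changes was not tested.

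With MK-8722 in DKO, 0 of the 7 genes were called when edgeR tested against a fold change of 1.2 (glmTreat) and 3 by the adjusted p alone, and 0 to 1 with a library left out. Of all 15401 genes, 141 were called higher and 33 lower with glmTreat. By the adjusted p alone 1619 were higher and 1579 lower, against 843 and 495 in the main fit. With torin1 in DKO, 2 genes were called with glmTreat, 2 without WT passage 11 and DKO passage 8, and 2 to 4 with a library left out. In the main fit 43.2% of all genes were called with torin1 in DKO. Each difference of response counted 4 to 5 genes with a library left out, where the main fit called 11.0% (torin1) and 5.49% (MK-8722) of all genes.

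Log2 values near 0 turned direction. With an offset for gene length *Fnip2* in DKO against WT under MK-8722 was 0.0113, and the difference of *Rraga* in response to torin1 was 0.00601, against 0.00565 with DESeq2 and 0.00520 with DESeq2 size factors. Without WT passage 11 and DKO passage 8, torin1 against MK-8722 in DKO was -0.0654 for *Fnip2* and -0.0310 for *Rragd*. With a library left out, that difference of *Rraga* ran from -0.0301 to 0.0400, torin1 against MK-8722 in DKO from -0.0471 to 0.123 for *Fnip2* (lowest without the DKO torin1 library of passage 8), and MK-8722 in DKO from -0.0113 to 0.128 for *Rragb* (lowest without the DKO DMSO library of passage 11). With Spearman's rho, 6 of the 21 genes of like pattern were shared.

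With a replicate block of the passage or of the number in the title, the response to MK-8722 counted 5 genes (*Rragb* added, edgeR adjusted p = 0.0288 and 0.0431). Over all genes this difference was called higher for 218 and lower for 628 without a block. The passage block gave 486 and 906, and the title block 225 and 638. With the passage block the response to torin1 counted 5 (*Fnip2* added, edgeR adjusted p = 0.031), and with the title block torin1 in DKO counted 3 (*Rragd* lost, edgeR adjusted p = 0.0524). Same-numbered libraries correlated with r from -0.414 to 0.657, so the number was not read as pairing.

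Scaling by library size alone shifted the median of all genes by -0.127 (log2) in DKO against WT under torin1, with 2629 genes called higher and 5623 lower in place of 3692 and 4283. Differences of response of *Rragd*, at 3 to 16 counts in DKO, were called only with the length offset (-1.76 and -1.97, edgeR adjusted p = 0.0431 and 0.0455).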
